A study of Mus musculus with 22 samples.

Results

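Transcript levels of receptors and ligands that macrophages use to take up modified lipoproteins, bacteria and dying cells were measured in macrophages that had been grown from mouse bone marrow with the growth factor M-CSF (BMDM). The members were the TAM receptor kinases Mertk, Axl and Tyro3, their ligand Gas6, and the scavenger receptors Cd36, Msr1, Marco, Cd163, Stab1 and Olr1, 10 genes in all. They were found as every array probe whose RefSeq accession maps to one of these symbols, which gave 12 probes, as Tyro3 and Msr1 had 2 each. Of the 10 genes, 9 were among the 22384 genes tested. Cd163 was not tested, because its probe was well above background on 2 of 22 arrays. The BMDM came from male C57BL/6 mice aged 10 to 14 weeks that were wild-type (wt), lacked the protein kinase MK2 (MK2-/-) or lacked both MK2 and the related kinase MK3 (MK2/3-/-). The animals lacked the kinases in all cells, so the macrophages had also matured without them. Cells received 100 ng/ml LPS, a component of the bacterial cell wall, or medium alone, both for 360 min. There were 3 LPS and 4 medium arrays for wt, 4 and 4 for MK2-/-, and 4 and 3 for MK2/3-/-. The methods describe independent experiments, and the p-values measure the spread between these arrays.

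The TAM receptors are tyrosine kinases that do not touch a dying cell themselves. Gas6 and the related protein S bridge phosphatidylserine, a lipid exposed on dying cells, to the receptor, which then triggers engulfment and restrains inflammatory signalling. Scavenger receptors are membrane proteins of unrelated structure that are grouped into classes and bind polyanionic ligands such as oxidised lipoproteins and bacterial surface molecules. In RNA from a whole culture, fewer cells of a type and less RNA per cell cannot be told apart, and this holds for every difference given here. The study asked how the 2 kinases act on the response to LPS, and the comparisons here are LPS against medium in each genotype, the genotypes against each other, and the differences between their LPS responses.

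All 6 macrophage markers with a probe (Adgre1, Itgam, Csf1r, Cd14, Lyz2 and Fcgr1) were well above background on all 22 arrays. Mapkapk2, which encodes MK2, differed by between -3.95 and -3.04 on the log2 scale in the knockout genotypes against wt of the same treatment. Mapkapk3, which encodes MK3, differed in MK2/3-/- against wt by -4.13 under LPS and -1.95 in medium. MK2-/- replicate 3 of each treatment had low Y-linked signals of 2.08 under LPS and 2.33 in medium (mean log2 signal of 4 genes), against 6.85 to 8.82 on the other 20 arrays, although all cells were labelled male. The LPS array of that pair also had 2927 flagged spots, against 115 to 261 on the others. On replicate 4 of wt medium, the 947 genes that LPS raised by at least 2 on the log2 scale in both knockout genotypes averaged 9.26, against 8.59 to 8.77 on the other wt medium arrays. All arrays of a genotype lay on 1 slide, so genotype and slide cannot be told apart in direct comparisons of genotypes, whereas both treatments of a genotype were on the same slide. The wt arrays were also scanned on a different day from the arrays of both knockout genotypes. Scan day and the difference of either knockout genotype from wt cannot be told apart.

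The upstream sequences of 4 members are shown as a description, and their part in the results was not tested. They are those of Olr1, which rose with LPS in all 3 genotypes, of Axl, and of Stab1 and Gas6, whose signals moved together from array to array. Axl was higher in MK2/3-/- than in wt under LPS, a difference not kept in all alternative fits. Each is the 250 bases before the annotated gene start in RefSeq (GRCm38.p6), written 5′ to 3′ on the strand of the gene, all 4 on the minus strand, at chr6:129507166-129507415 for Olr1, chr7:25788734-25788983 for Axl, chr14:31168642-31168891 for Stab1 and chr8:13494536-13494785 for Gas6. Capitals mark a match to the AP-1 letters TGANTCA in Olr1 and to the PU.1 core GAGGAAG, read on the other strand, in Axl.
Olr1: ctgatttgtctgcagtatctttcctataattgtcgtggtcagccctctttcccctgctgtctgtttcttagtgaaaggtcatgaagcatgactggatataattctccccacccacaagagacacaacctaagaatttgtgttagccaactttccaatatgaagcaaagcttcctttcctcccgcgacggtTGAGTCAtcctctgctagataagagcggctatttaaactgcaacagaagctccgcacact
Axl: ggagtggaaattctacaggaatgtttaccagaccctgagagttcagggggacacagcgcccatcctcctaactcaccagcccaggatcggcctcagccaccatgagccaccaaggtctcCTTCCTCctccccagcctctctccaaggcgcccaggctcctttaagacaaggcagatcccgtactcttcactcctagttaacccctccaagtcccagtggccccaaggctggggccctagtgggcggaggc
Stab1: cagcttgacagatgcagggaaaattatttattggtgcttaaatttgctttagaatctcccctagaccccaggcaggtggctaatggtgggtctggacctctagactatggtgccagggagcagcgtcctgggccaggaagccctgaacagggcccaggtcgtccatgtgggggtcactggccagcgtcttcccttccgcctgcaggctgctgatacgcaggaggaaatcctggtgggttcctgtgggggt
Gas6: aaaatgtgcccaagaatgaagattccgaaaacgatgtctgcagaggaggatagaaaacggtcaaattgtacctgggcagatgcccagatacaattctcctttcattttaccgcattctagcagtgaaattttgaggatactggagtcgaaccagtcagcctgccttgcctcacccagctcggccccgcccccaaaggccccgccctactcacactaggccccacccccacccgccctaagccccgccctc

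RefSeq held a promoter window for 9 of the 10 members, and Msr1 had none in the table used here. The windows run from 250 bases before to 50 bases after the start, and 6 motifs were searched on both strands. The AP-1 letters TGANTCA, bound by Fos and Jun proteins, occurred in the window of Olr1 alone, from 60 to 54 bases upstream, and in 7.81% of all 32851 promoter windows. The PU.1 core GAGGAAG, named for a factor of the myeloid lineage, occurred in Axl and Marco and in 13.6% of all windows. A kappaB match occurred in Tyro3 and in 4.51% of all windows. No member window held the interferon-stimulated response element GAAANNGAAA (3.44% of all windows), the LXR DR4 repeat (0.0426%) or the PPAR DR1 repeat (0.128%). Base composition differed among members, from 36.8% G and C with 0 CpG pairs upstream of Cd163 to 73.2% with 24 CpG pairs upstream of Tyro3, with medians over genes of 52% and 6 pairs. Such matches describe the letters in these windows and no more.

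LPS moved the members in both directions. Values are log2 signals after quantile normalisation, differences are LPS minus medium on that scale, and a gene was called at an adjusted p below 0.05 in limma, with the Benjamini-Hochberg adjustment over all 22384 genes. In wt BMDM, 5 of 9 members were called, as Msr1, Olr1 and Axl rose and Stab1 and Mertk fell, where 41.8% of all genes were called (18.6% higher and 23.2% lower). In MK2-/- BMDM, 6 of 9 were called, as Gas6 fell in addition, where 44.4% of all genes were called (17.7% higher and 26.7% lower). In MK2/3-/- BMDM, 5 of 9 were called, as Msr1, Olr1, Axl and Tyro3 rose and Stab1 fell, where 47.8% of all genes were called (20.3% higher and 27.5% lower). The median difference of the 9 members was 0.76 in wt, 0.91 in MK2-/- and 1.06 in MK2/3-/-, against -0.04, -0.0018 and 0.02 over all genes tested. With scaling to the 75th percentile instead, the median of all genes itself moved to 0.28, 0.26 and 0.29, and relative to that shift the directions of the called members were unchanged.

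**Figure D1:**
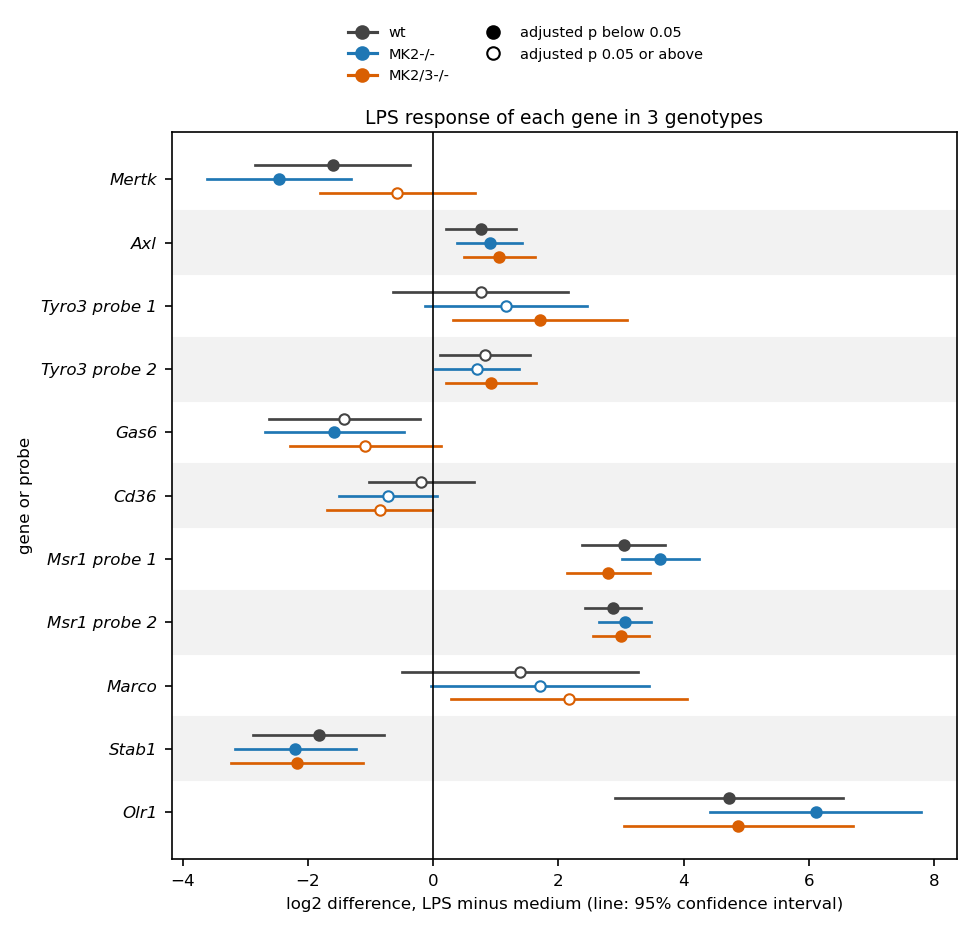
Log2 difference between LPS and medium (x axis) for 9 genes, with both probes of Tyro3 and Msr1 (y axis), in wt (grey), MK2-/- (blue) and MK2/3-/- (orange) BMDM, where lines are 95% confidence intervals and filled points have a limma adjusted p below 0.05. Msr1 and Olr1 lie far to the right of 0 and Stab1 to the left in all 3 genotypes, while the Mertk point of MK2/3-/- at -0.57 is open and its interval spans 0.

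Olr1 (class E) encodes the lectin-like receptor for oxidised low-density lipoprotein, LOX-1. In wt BMDM its log2 signal was 2.98, 4.47, 2.04 and 5.08 in medium and 7.16, 9.35 and 8.60 under LPS. In MK2-/- BMDM it was 2.03, 2.12, 3.31 and 3.76 in medium and 8.40, 9.68, 7.82 and 9.77 under LPS. In MK2/3-/- BMDM it was 3.37, 4.76 and 2.35 in medium and 7.01, 9.31, 7.04 and 10.14 under LPS. Every LPS array lay above every medium array of all genotypes. The probe was well above background on all 11 LPS arrays but on 2 of 4 medium arrays of wt, 0 of 4 of MK2-/- and 1 of 3 of MK2/3-/-. The rise was 4.73 ± 0.87 (SE) in wt (adjusted p = 0.000227) and 4.88 ± 0.87 in MK2/3-/- (adjusted p = 0.000114). In MK2-/- BMDM, where no medium array was well above background, LPS cells had at least 41.3-fold more signal (adjusted p = 3.72e-06), counted against the lowest signal of a probe well above background on each medium array, or the probe's own signal where that was higher. The size of the fitted rise depended on the background correction, and with normexp it was 2.31 in wt, 2.94 in MK2-/- and 2.39 in MK2/3-/-, still called in each.

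Msr1 (class A) encodes a receptor for acetylated and oxidised lipoproteins and for bacterial surface molecules, and it was measured by 2 probes. Probe 1 read 11.28, 12.24, 10.67 and 11.26 on wt medium arrays and 14.16, 14.60 and 14.45 on wt LPS arrays. It read 10.96, 11.09, 11.25 and 11.76 in medium and 14.45, 15.02, 14.76 and 15.33 under LPS in MK2-/- BMDM. In MK2/3-/- BMDM it read 12.00, 12.33 and 11.38 in medium and 14.52, 14.87, 14.44 and 14.97 under LPS. On both probes the LPS arrays lay above all medium arrays in each genotype. Probe 1 rose by 3.04 ± 0.32 (SE, 8.24-fold) in wt, by 3.63 ± 0.29 in MK2-/- and by 2.80 ± 0.32 in MK2/3-/- BMDM. Adjusted p-values in limma were 3.27e-07, 6.45e-09 and 5.08e-07. Probe 2 gave rises of 2.87 ± 0.21, 3.06 ± 0.20 and 3.00 ± 0.21 in a fit over all 28103 probes that passed the filter, in which 41.7%, 45.1% and 48.2% of probes were called in wt, MK2-/- and MK2/3-/-. On probe 1, MK2-/- LPS arrays ranged from 14.45 to 15.33 and MK2/3-/- LPS arrays from 14.44 to 14.97, so the genotypes overlapped. On probe 1 the LPS response of MK2/3-/- was 0.83 smaller than that of MK2-/- (95% confidence interval of the difference -1.73 to 0.07, adjusted p = 0.625), and on probe 2 it was 0.06 smaller (-0.67 to 0.55).

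**Figure D2:**
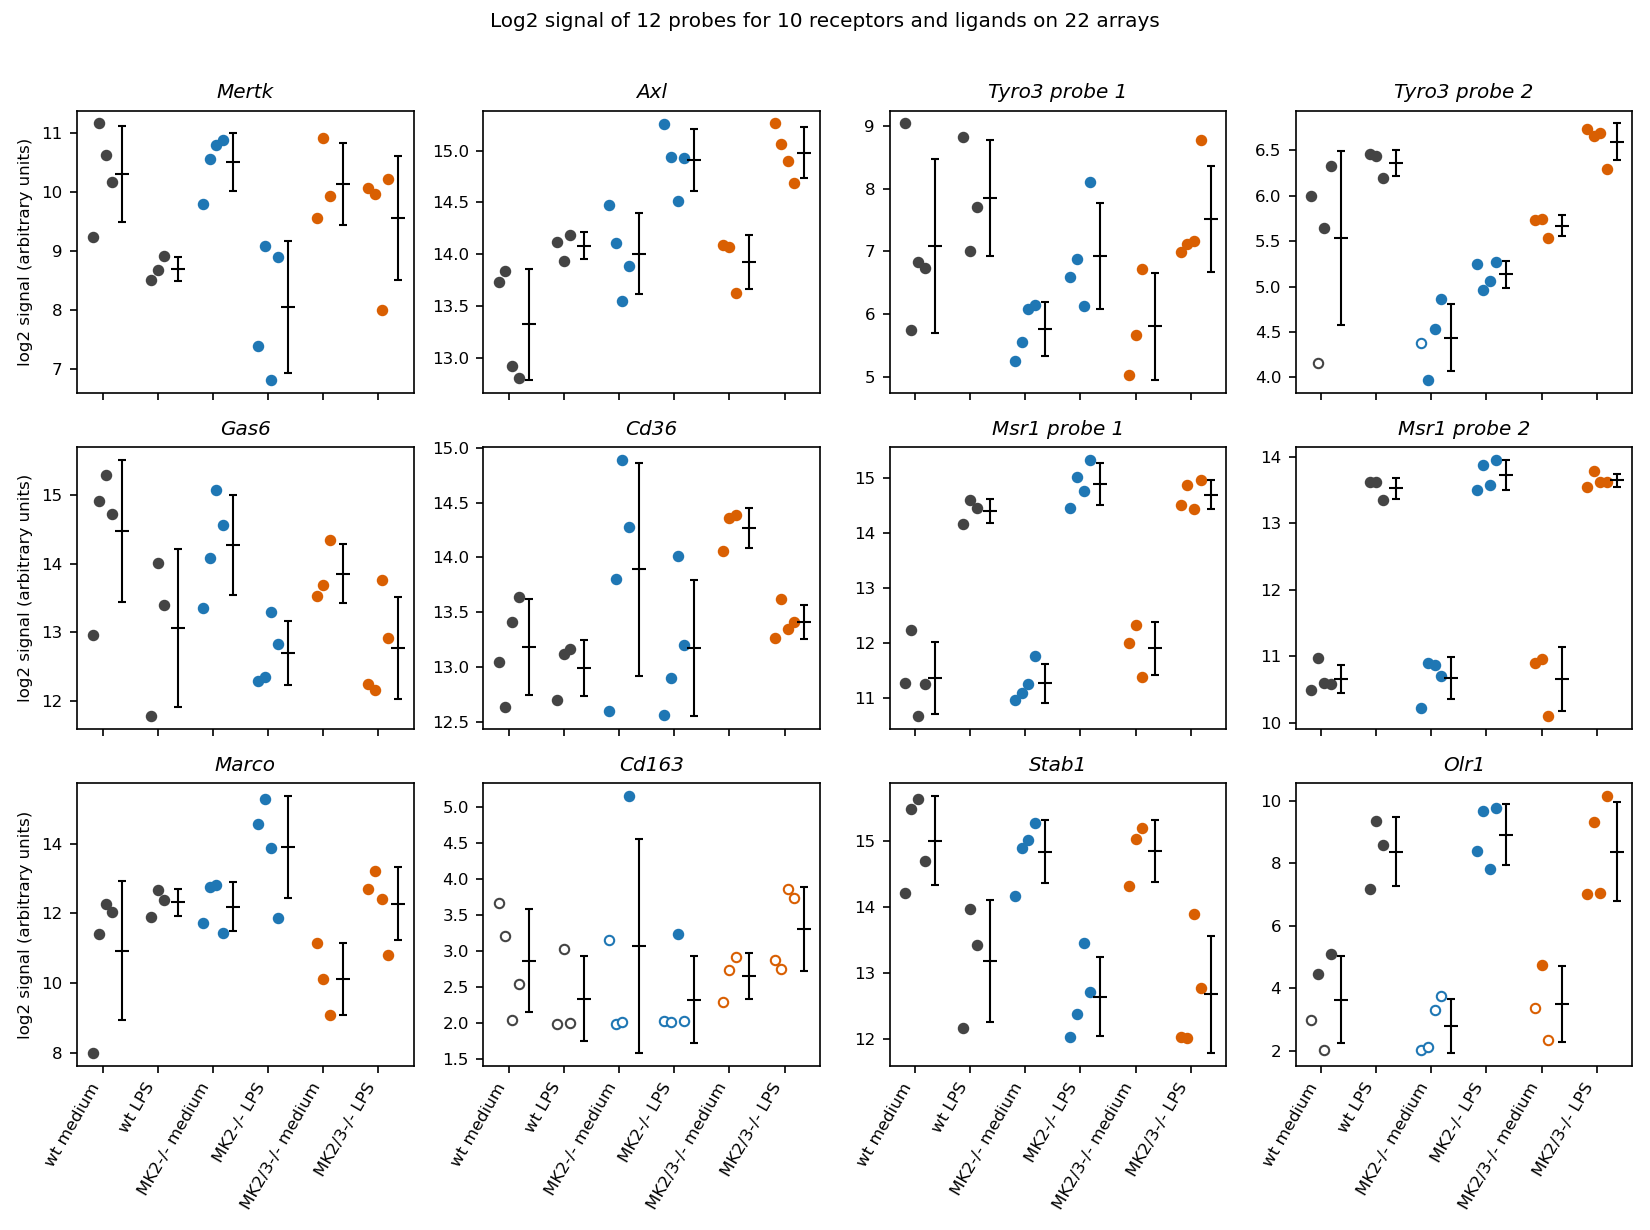
Log2 signal (y axis, own scale in each panel) of the 12 probes on each of the 22 arrays, by genotype and treatment (x axis), with wt in grey, MK2-/- in blue and MK2/3-/- in orange. Open points were not well above background, and bars give the mean ± SD of 3 or 4 arrays; Msr1 and Olr1 separate LPS from medium completely, while Marco in wt medium spans 8.01 to 12.27.

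Marco (class A), a receptor for bacteria and particles that is prominent on alveolar and marginal zone macrophages, varied widely between replicates. In wt BMDM it read 8.01, 11.42, 12.27 and 12.04 in medium and 11.91, 12.66 and 12.40 under LPS. In MK2-/- BMDM it read 11.74, 12.77, 12.82 and 11.44 in medium and 14.56, 15.27, 13.89 and 11.88 under LPS. In MK2/3-/- BMDM it read 11.15, 10.13 and 9.08 in medium and 12.70, 13.22, 12.41 and 10.80 under LPS. Medium and LPS arrays overlapped in each genotype, and 1 array stood well below its group in wt medium (replicate 1), in MK2-/- LPS (replicate 4) and in MK2/3-/- LPS (replicate 4). The differences of 1.39 ± 0.90 in wt, 1.71 ± 0.83 in MK2-/- and 2.17 ± 0.90 in MK2/3-/- were not called (adjusted p = 0.236, 0.107 and 0.0546). Without wt medium replicate 1, whose spread enters the shared variance, the difference was called in MK2-/- (adjusted p = 0.0371) and in MK2/3-/- (0.0147). It was also called in both without MK2-/- LPS replicate 4 (0.0265 and 0.0374), and in MK2/3-/- without LPS replicate 4 (0.0248) or medium replicate 1 (0.0392) of that genotype. In medium all MK2-/- arrays lay above all MK2/3-/- arrays, a difference of 2.07 ± 0.90 that was not called (adjusted p = 0.274).

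Stab1 (class H) encodes stabilin-1, an endocytic receptor for modified lipoproteins and extracellular matrix fragments that also binds phosphatidylserine. In wt BMDM it read 14.21, 15.48, 15.65 and 14.71 in medium and 12.16, 13.97 and 13.42 under LPS. MK2-/- arrays gave 14.16, 14.90, 15.03 and 15.28 in medium and 12.03, 12.38, 13.45 and 12.71 under LPS. MK2/3-/- arrays gave 14.32, 15.03 and 15.21 in medium and 12.03, 12.01, 13.89 and 12.77 under LPS. All LPS arrays lay below all medium arrays, also across genotypes. It fell with LPS (-1.83 ± 0.50 (SE) in wt, -2.20 ± 0.46 in MK2-/- and -2.18 ± 0.50 in MK2/3-/-), to signals 3.55, 4.59 and 4.52 times lower (adjusted p = 0.00632, 0.000624 and 0.00129). The wt call was lost without wt LPS replicate 1 (-1.32, adjusted p = 0.0521), the array with the lowest wt signal, and with scaling to the 75th percentile (-1.22, adjusted p = 0.0758). It was also lost with the methods' t-test (adjusted p = 0.0667). The 3 genotypes had mean signals of 15.01 ± 0.67, 14.84 ± 0.48 and 14.85 ± 0.47 (SD, n = 4, 4 and 3) in medium, and no genotype comparison was called.

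Gas6, the secreted bridge between dying cells and the TAM receptors, had a lower mean signal under LPS in each genotype. In wt BMDM it read 12.97, 14.92, 15.30 and 14.73 in medium and 11.78, 14.01 and 13.40 under LPS. MK2-/- arrays gave 13.36, 14.09, 15.08 and 14.56 in medium and 12.30, 12.35, 13.29 and 12.83 under LPS. MK2/3-/- arrays gave 13.53, 13.69 and 14.35 in medium and 12.25, 12.16, 13.77 and 12.92 under LPS. LPS and medium arrays overlapped in wt and MK2/3-/- and were apart in MK2-/-, with medium replicate 1 low in wt and LPS replicate 3 high in MK2/3-/-. In the main fit the difference was called in MK2-/- alone (-1.58 ± 0.53, adjusted p = 0.0208), against -1.42 ± 0.57 in wt (0.0550) and -1.08 ± 0.57 in MK2/3-/- (0.132). The 3 differences between these responses were not called (adjusted p = 0.923 to 0.976). The wt value was called without wt medium replicate 1 (-1.92, adjusted p = 0.00814), wt LPS replicate 2 (-1.89, 0.0257) or MK2/3-/- LPS replicate 3 (-1.42, 0.0460). It was also called with normexp (0.0439), with probes above background on all arrays of a group (0.0490) and with a replicate block by letter (0.0322) or label number (0.0345). The MK2/3-/- value was called with array weights (-1.40, 0.0374). The MK2-/- call was lost without its LPS replicate 1 (adjusted p = 0.0570) or 2 (0.0539), without its medium replicate 3 (0.0739) or 4 (0.0531), and without both arrays of low Y-linked signal (0.0570), and with scaling to the 75th percentile (-1.06, adjusted p = 0.139).

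Mertk is the TAM receptor most used by macrophages to clear dying cells. In wt BMDM it read 9.25, 11.16, 10.63 and 10.18 in medium and 8.52, 8.68 and 8.92 under LPS. The MK2-/- signals were 9.80, 10.56, 10.80 and 10.89 in medium and 7.40, 9.08, 6.82 and 8.90 under LPS. The MK2/3-/- signals were 9.57, 10.91 and 9.93 in medium and 10.07, 9.96, 8.0 and 10.22 under LPS. LPS and medium arrays did not overlap in wt and MK2-/- BMDM, whereas in MK2/3-/- BMDM 3 of 4 LPS arrays lay within the range of the medium arrays and replicate 3 lay below it. Mertk fell by 1.60 ± 0.59 (SE) on the log2 scale in wt, with an adjusted p of 0.0361, and by 2.46 ± 0.55 in the single knockout, with 0.00102, and in MK2/3-/- the difference was -0.57 ± 0.59 (95% confidence interval -1.81 to 0.66, adjusted p = 0.462). The LPS response of MK2/3-/- minus that of MK2-/- was 1.89 ± 0.80 (adjusted p = 0.511), and minus that of wt it was 1.03 ± 0.84 (adjusted p = 0.749), so the responses were not shown to differ. Under LPS the signal of MK2/3-/- was 1.51 ± 0.55 above that of MK2-/- (adjusted p = 0.0735), which was called without MK2/3-/- LPS replicate 3 (2.03, adjusted p = 0.0162) or MK2-/- LPS replicate 2 (1.85, adjusted p = 0.0498). It was also called with array weights (1.81, adjusted p = 0.0250). The wt call was lost without any of wt LPS replicates 1, 2 and 3 (adjusted p = 0.0887, 0.0857 and 0.0627) or wt medium replicates 2, 3 and 4 (0.104, 0.0780 and 0.0534). It was also lost with the methods' t-test (adjusted p = 0.0551).

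Axl, the TAM receptor whose transcript is known to rise with inflammatory stimuli, moved opposite to Mertk. In wt BMDM it read 13.73, 13.84, 12.92 and 12.80 in medium and 14.12, 13.94 and 14.19 under LPS. The MK2-/- signals were 14.48, 14.10, 13.55 and 13.89 in medium and 15.25, 14.94, 14.52 and 14.93 under LPS. The MK2/3-/- signals were 14.09, 14.06 and 13.62 in medium and 15.26, 15.07, 14.90 and 14.69 under LPS. LPS arrays lay above medium arrays in each genotype, and all 8 LPS arrays of the knockout genotypes lay above the 3 of wt. LPS raised Axl by 0.76 ± 0.27 (SE) in wt (adjusted p = 0.0290), by 0.90 ± 0.25 in MK2-/- (0.00557) and by 1.06 ± 0.27 in MK2/3-/- (0.00286). The wt call was lost without wt LPS replicate 1 or 3 (adjusted p = 0.0659 and 0.0899) and without wt medium replicate 3 or 4 (0.0898 and 0.0978). It was also lost when only the groups compared entered the fit (0.0816) and with the methods' t-test (0.130). With scaling to the 75th percentile the rises were 1.32, 1.62 and 1.82, all called.

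Under LPS, Axl was the only member called between genotypes in the fit over genes. The difference of MK2/3-/- minus wt was 0.90 ± 0.27 (SE, 1.87-fold, adjusted p = 0.0210), so 1 of 9 members was called where 23.7% of all genes were. For MK2-/- minus wt under LPS it was 0.83 ± 0.27 (adjusted p = 0.0514), and 0 of 9 members were called where 11.6% of all genes were. The first call was lost without wt LPS replicate 1 (adjusted p = 0.0533) or 2 (0.0695) or MK2/3-/- LPS replicate 1 (0.0590). It was also lost when only the groups compared entered the fit (0.0536) and with the methods' t-test (0.0730). The second difference was called in 13 of 34 alternatives, with adjusted p-values from 0.0108 to 0.134 over all of them. Single arrays whose removal made that call were wt medium replicates 2 and 4 (adjusted p = 0.0452 and 0.0467), MK2-/- LPS replicate 3 (0.0368), MK2-/- medium replicates 1 and 3 (0.0486 and 0.0489) and MK2/3-/- LPS replicates 1 and 4 (0.0495 and 0.0482). MK2/3-/- and MK2-/- differed under LPS by 0.07 (95% confidence interval -0.45 to 0.59). In medium the Axl difference from wt was 0.68 ± 0.25 for MK2-/- (adjusted p = 0.0918) and 0.60 ± 0.27 for MK2/3-/- (0.255), with overlapping arrays, and neither was called. The LPS responses of the knockout genotypes exceeded that of wt by 0.15 ± 0.37 and 0.30 ± 0.38, which was not called either (adjusted p = 0.956 and 0.879).

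**Figure D3:**
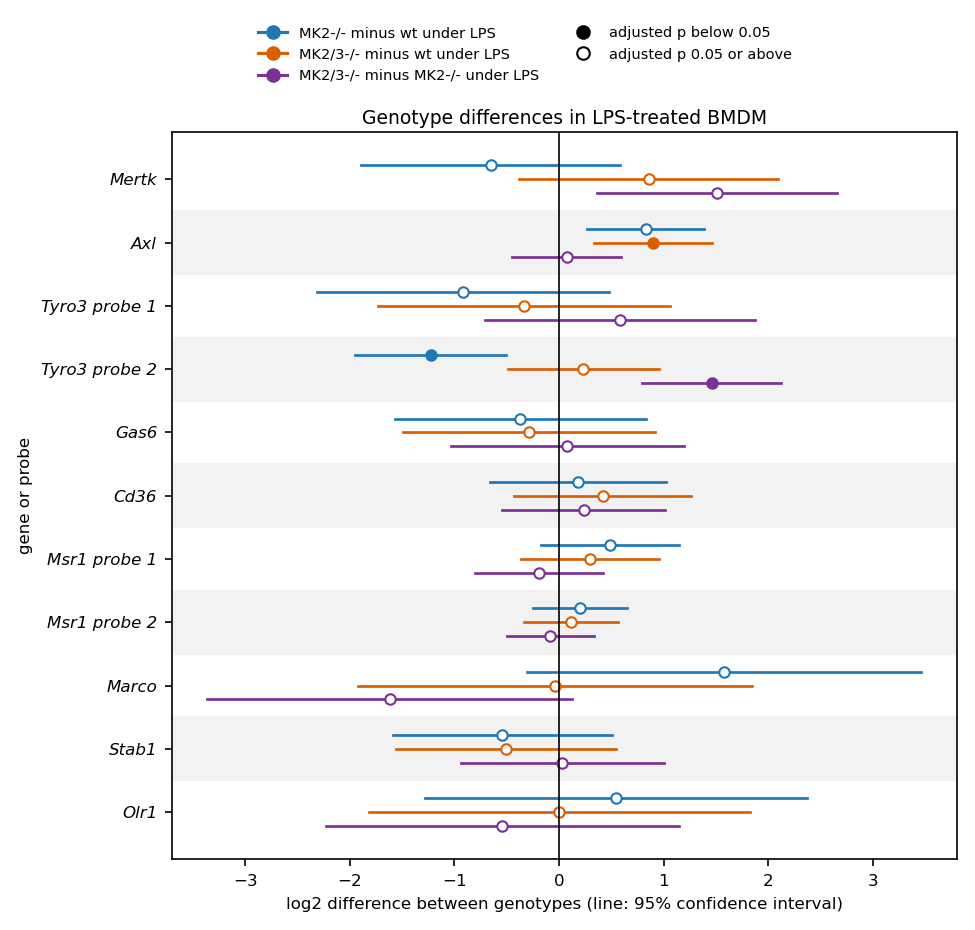
Log2 difference between genotypes in LPS-treated BMDM (x axis) for 9 genes, with both probes of Tyro3 and Msr1 (y axis), as MK2-/- minus wt (blue), MK2/3-/- minus wt (orange) and MK2/3-/- minus MK2-/- (purple), where lines are 95% confidence intervals and filled points have a limma adjusted p below 0.05. Axl lies to the right of 0 in both knockout genotypes against wt, with the MK2/3-/- point at 0.90 filled, and Tyro3 probe 2 has filled points at -1.23 and 1.46.

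Tyro3, the TAM receptor best known from the nervous system, was read by 2 probes that differed on the genotypes. Probe 1 read 9.04, 5.74, 6.83 and 6.74 in medium and 8.83, 7.01 and 7.71 under LPS in wt, and the array with the highest signal was the medium replicate 1. On MK2-/- arrays it read 5.26, 5.56, 6.09 and 6.15 in medium and 6.60, 6.88, 6.14 and 8.11 under LPS, and on MK2/3-/- arrays 5.04, 5.67 and 6.72 in medium and 6.98, 7.12, 7.16 and 8.77 under LPS. LPS and medium arrays were apart in MK2/3-/- alone, where probe 1 rose by 1.70 ± 0.67 (SE, adjusted p = 0.0418), against 0.76 ± 0.67 in wt and 1.17 ± 0.62 in MK2-/- (adjusted p = 0.392 and 0.138). The call was lost without MK2/3-/- LPS replicate 4 (1.28, adjusted p = 0.13) or medium replicate 1 (1.32, 0.169) or 2 (1.63, 0.103), and with normexp (0.95, 0.0834). It was also lost with array weights (1.47, adjusted p = 0.0582), without the filter on dim probes (0.0502) and with the methods' t-test (0.0994). The differences between the LPS responses were not called.

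On probe 2 of Tyro3, the spread between replicates was narrower and MK2-/- BMDM stood low. Under LPS it read 6.46, 6.43 and 6.19 in wt, 5.24, 4.96, 5.06 and 5.27 in MK2-/- and 6.73, 6.66, 6.69 and 6.29 in MK2/3-/-, and MK2-/- arrays lay below all others. In medium it read 6.00, 4.16, 5.65 and 6.33 in wt, 4.38, 3.97, 4.53 and 4.87 in MK2-/- and 5.74, 5.74 and 5.53 in MK2/3-/-, so that wt replicate 2, which was not well above background, lay among the MK2-/- arrays. In the fit over all 28103 probes, MK2-/- was 1.23 ± 0.34 below wt (adjusted p = 0.0290, with 11.6% of probes called) and 1.46 ± 0.32 below MK2/3-/- under LPS (adjusted p = 0.00514, with 13.6% called). In medium it was 1.1 ± 0.32 below wt (adjusted p = 0.0427, with 7.76% called) and 1.23 ± 0.34 below MK2/3-/- (adjusted p = 0.0627). Probe 1 gave 0.92 ± 0.67 and 0.58 ± 0.62 for MK2-/- below wt and below MK2/3-/- under LPS, in the same direction and not called (adjusted p = 0.372 and 0.595). In medium the probes disagreed on MK2/3-/-, whose difference from MK2-/- was 0.04 on probe 1 and 1.23 on probe 2, and from wt -1.28 on probe 1 and 0.14 on probe 2. The difference between MK2/3-/- and MK2-/- under LPS was called in all 29 alternatives run on this probe, ranging from 0.65 to 1.56. That from wt under LPS was lost in 7, with scaling to the 75th percentile (-0.64, adjusted p = 0.201), without both MK2-/- arrays of low Y-linked signal (0.0566), without any of wt LPS replicates 1, 2 and 3 (0.0820, 0.0745 and 0.0597) and without MK2-/- LPS replicate 1 or 2 (0.0513 and 0.0690). The call in medium was lost in 17, with scaling to the 75th percentile (-0.46), with normexp (-0.40), without both arrays of low Y-linked signal, and without any of wt LPS replicates 2 and 3, wt medium replicates 1, 3 and 4, MK2-/- LPS replicates 1, 2 and 4, MK2-/- medium replicates 1, 2 and 3 and MK2/3-/- medium replicates 1, 2 and 3 (adjusted p = 0.0504 to 0.140). LPS raised probe 2 in MK2/3-/- by 0.92 ± 0.34 (adjusted p = 0.0330), lost without any 1 of the 6 MK2/3-/- arrays other than LPS replicate 4 (adjusted p = 0.060 to 0.0964). The differences of 0.83 ± 0.34 in wt and 0.70 ± 0.32 in MK2-/- were not called (adjusted p = 0.0613 and 0.0847). The first was called without wt medium replicate 1 or 4 (adjusted p = 0.0408 and 0.0147) and the second without wt medium replicate 2 (0.00553), and the MK2/3-/- to MK2-/- difference in medium was called without wt medium replicate 2 or 4 (0.00234 and 0.0434). With scaling to the 75th percentile each of these was called (adjusted p = 0.00888, 0.0158 and 0.0439). The first was also called with normexp (0.0389) and a replicate block by label number (0.0396), and the last with array weights (0.0280).

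Cd36 (class B), a receptor for oxidised lipoproteins and long-chain fatty acids, was not called in any comparison in the fit of all 22 arrays. In wt BMDM it read 13.05, 12.64, 13.41 and 13.64 in medium and 12.70, 13.12 and 13.17 under LPS, which overlapped. In MK2-/- BMDM it read 12.60, 13.80, 14.89 and 14.28 in medium and 12.57, 12.90, 14.02 and 13.21 under LPS, which overlapped as well. In MK2/3-/- BMDM it read 14.05, 14.36 and 14.39 in medium and 13.27, 13.63, 13.35 and 13.41 under LPS, and these groups were apart. The LPS differences were -0.19 ± 0.40, -0.72 ± 0.37 and -0.86 ± 0.40 (adjusted p = 0.751, 0.13 and 0.0885). The difference in MK2/3-/- was called when only its 2 groups entered the fit (adjusted p = 0.00999), with the methods' t-test (0.00658) and without both MK2-/- arrays of low Y-linked signal (0.0347). Without MK2-/- medium replicate 1, the lowest of its group, the difference in MK2-/- was called (-1.15, adjusted p = 0.00605) and so was that in MK2/3-/- (adjusted p = 0.0309) and that of MK2-/- minus wt in medium (1.14, adjusted p = 0.0437). The MK2-/- difference was also called without MK2-/- LPS replicate 3 (-1.0, adjusted p = 0.0373). In medium all MK2/3-/- arrays lay above all wt arrays, by 1.09 ± 0.40 (adjusted p = 0.167).

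Cd163, the receptor that removes complexes of haemoglobin and haptoglobin and a marker of macrophages with anti-inflammatory traits, read between 1.99 and 5.14 over the 22 arrays. The 2 signals well above background were 5.14 on MK2-/- medium replicate 4 and 3.23 on MK2-/- LPS replicate 3. A difference between groups was not detectable with this probe, and none was tested.

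In medium, 0 of 9 members were called between genotypes, where 8.57% of all genes were called for MK2-/- minus wt, 1.95% for MK2/3-/- minus wt and 2.82% for MK2/3-/- minus MK2-/-. Under LPS, 0 of 9 were called for MK2/3-/- minus MK2-/-, where 13.8% of all genes were. For the differences between LPS responses, 0 of 9 members were called, where 0% of all genes were called for MK2-/- minus wt, 0.652% for MK2/3-/- minus wt and 0.0536% for MK2/3-/- minus MK2-/-. At an unadjusted p below 0.05, 1633, 2531 and 1928 genes were reached in these 3 comparisons of responses. For most members the confidence intervals of these differences were wide, from -0.62 to 0.91 for Axl to -2.24 to 2.89 for Marco between MK2-/- and wt. The comparisons of LPS against medium in a genotype and of genotypes share arrays, and their values are given side by side for that reason.

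Some pairs of members varied together within groups, over and above the treatment, and some varied in opposite directions. After each array's signal was taken relative to its group mean, Gas6 and Stab1 correlated at r = 0.91 over the 22 arrays, Olr1 and Msr1 at r = 0.76, Axl and Cd36 at r = -0.79 and Marco and Tyro3 at r = -0.78. Other pairs lay near 0, such as Mertk and Axl (r = -0.01) and Marco and Olr1 (r = -0.01). These are descriptions over arrays that share slides and normalisation, chosen after the values were seen. In medium, Olr1 was well above background on only 2 of 4 wt, 0 of 4 MK2-/- and 1 of 3 MK2/3-/- arrays. Its deviations there are mostly those of signals near background. Replicate 1 was the lowest array of its group, or next to it in MK2/3-/- LPS, for both Gas6 and Stab1 in all 6 groups, and the array highest in both was MK2/3-/- LPS replicate 3, the one lowest in Mertk within its group. Wt medium replicate 1 was the lowest of its group in Marco and Gas6 and the highest in Tyro3 probe 1. Over the normalised log2 signals of the 22 arrays, the genes most alike to each member were Ppfia4 (r = 0.86) for Mertk, Stk4 (0.91) for Axl, Ehd3 (0.93) for Tyro3, Prxl2a (0.93) for Gas6, Aldh3a1 (0.71) for Cd36, Fnbp1l (0.98) for Msr1, Prkcd (0.81) for Marco, Abcc3 (0.96) for Stab1 and Gm6377 (0.97) for Olr1, among 17519 genes compared. Stab1 was second for Gas6 (0.93) and Msr1 second for Olr1 (0.96).

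**Figure D4:**
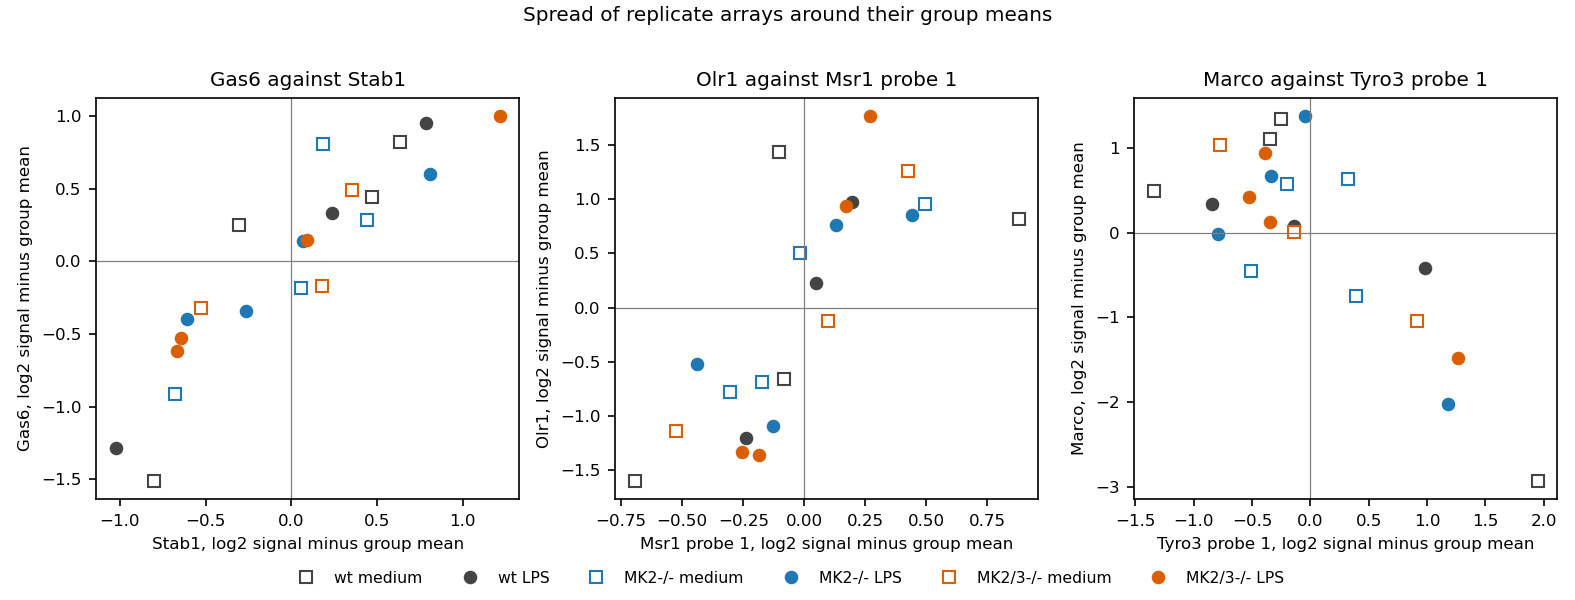
Log2 signal minus the group mean for 3 pairs of members on 22 arrays, with filled circles for LPS and open squares for medium, wt in grey, MK2-/- in blue and MK2/3-/- in orange, and Stab1, Msr1 and Tyro3 on the x axes. Gas6 follows Stab1 (r = 0.91) and Olr1 follows Msr1 (r = 0.76) upward, while Marco and Tyro3 probe 1 run opposite (r = -0.78), with wt medium replicate 1 at the far lower right. Most Olr1 signals in medium were not well above background.

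Other genes of the same processes were counted in the same way, and each count stands beside the 41.8%, 44.4% and 47.8% of all genes called for LPS in wt, MK2-/- and MK2/3-/-. These lists were described and not tested. Of 17 genes for apoptotic-cell recognition, 3 rose and 5 fell with LPS in wt, 4 and 5 in MK2-/- and 3 and 4 in MK2/3-/-, with median differences of -0.63, -0.63 and -0.27. Cd300lf, a phosphatidylserine-binding receptor, fell by 4.32, 5.10 and 5.88 in wt, MK2-/- and MK2/3-/- (adjusted p at most 1.88e-06). The phosphatidylserine receptor Timd4 rose in all 3 genotypes (adjusted p at most 0.00325). It was well above background on all LPS arrays but on only 1 medium array of each genotype, so the size of its rise rests on signals near background. Havcr1, also called Tim-1, was at least 2.53-fold higher under LPS in wt, where no medium array was well above background (adjusted p = 9.59e-05). In MK2/3-/-, again with no medium array well above background, it was at least 4.65-fold higher. In MK2-/- its mean signal was 3.87 in medium, with 1 of 4 arrays well above background, and 5.82 under LPS. Of 15 other scavenger receptors tested, 1 rose and 3 fell in wt, 2 and 4 in MK2-/- and 2 and 2 in MK2/3-/-, among them Cd207, or langerin (-3.02, -3.84 and -3.88), and the lipoprotein receptor Scarb1 (-1.47, -1.89 and -1.77), called in all 3. Scarf2 rose by 1.70 in wt (adjusted p = 0.0250), with 1.22 and 0.55 in MK2-/- and MK2/3-/- (adjusted p = 0.0751 and 0.473). Of the 15 tested genes of engulfment and digestion, 5 rose and 3 fell in wt, 4 and 4 in MK2-/- and 5 and 4 in MK2/3-/-, with a rise of the glucose transporter Slc2a1 (2.19, 3.09 and 1.95) and falls of the mitochondrial carrier Ucp2 (-1.48, -2.06 and -1.70) and the nuclease Dnase2a (-1.43, -1.57 and -1.30).

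The nuclear receptors LXR, PPAR and RXR, which are known to control several uptake receptors, were counted with their partners and targets. Of 10 genes, 1 rose and 4 fell in wt, 1 and 6 in MK2-/- and 1 and 5 in MK2/3-/-, with median differences of -0.99, -0.67 and -1.02, where 23.2%, 26.7% and 27.5% of all genes fell. Pparg fell by 2.62, 2.90 and 3.31, Rxrb by 2.12, 2.25 and 2.48, and the cholesterol exporter Abcg1 by 2.95, 2.48 and 1.93 (adjusted p at most 0.0388). Of 5 genes of receptor shedding, the release of extracellular domains by proteases, 1 rose and 1 fell in wt, 2 and 1 in MK2-/- and 2 and 2 in MK2/3-/-, beside the 41.8%, 44.4% and 47.8% of all genes called. The protease Adam10 fell by 1.84, 2.16 and 2.45, and Rhbdf2, a partner of the protease Adam17, rose by 2.98, 3.09 and 2.70 (adjusted p at most 4.41e-06).

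Of the macrophage markers, Cd14 and Fcgr1 rose and Csf1r and Lyz2 fell with LPS in all 3 genotypes, and Itgam fell in both knockout genotypes. Markers of other cell types that such cultures could hold were measured beside these results. Of 5 neutrophil markers, 4 were tested, and S100a8 and Camp rose with LPS in wt and MK2-/- and Camp alone in MK2/3-/-. The log2 of their summed signal ranged from 9.43 to 12.62 in wt medium and 12.20 to 13.39 in wt LPS, from 8.50 to 12.00 and 11.26 to 13.38 in MK2-/-, and from 10.91 to 13.52 and 9.92 to 13.31 in MK2/3-/-. Of 3 dendritic cell markers, Zbtb46 rose in all 3 genotypes, Xcr1 rose in MK2/3-/- and Flt3 fell in MK2-/-, and their summed signal ranged from 7.43 to 8.66 over medium arrays and from 10.40 to 11.96 over LPS arrays. Xcr1 was well above background on 4 arrays, all MK2/3-/- LPS. Of 3 endothelial markers, which bear on Stab1 as a gene that endothelium also expresses, Cdh5 and Kdr rose in wt (1.1 and 0.77) and none fell, and Tek was well above background on 4 of 22 arrays. Their summed signal ranged from 11.69 to 12.40 in wt medium, 12.46 to 13.02 in wt LPS, 12.68 to 13.99 in MK2-/- medium, 12.88 to 13.43 in MK2-/- LPS, 12.93 to 13.42 in MK2/3-/- medium and 12.73 to 13.88 in MK2/3-/- LPS. The T cell marker Cd3e, the B cell marker Cd79a and the mast cell marker Mcpt4 rose by at most 0.82 in wt and were not called for LPS in the knockout genotypes, Cd3g was well above background on 2 arrays and Ms4a2 on none. Some markers were also called between genotypes. In medium, MK2-/- was higher than wt in Cd3e (1.29), 1 B cell and 1 endothelial marker. Under LPS, MK2-/- was lower than wt in 1 mast cell marker. MK2/3-/- was higher than wt under LPS in 1 B cell, 1 dendritic cell and 1 mast cell marker. It was lower there in 1 neutrophil and 1 endothelial marker. Against MK2-/-, it was higher in 1 B cell, 2 dendritic cell and 1 mast cell marker under LPS and 1 mast cell marker in medium. No fibroblast marker tested was called, but their replicates spread widely. Their summed signal ranged from 9.78 to 15.01 in wt medium and from 11.79 to 13.80 in wt LPS. It ranged from 8.44 to 12.79 and 8.68 to 12.33 in MK2-/-, and from 8.225 to 13.88 and 8.62 to 13.38 in MK2/3-/-. Under LPS their median difference from wt was -2.3 in MK2-/- and -2.06 in MK2/3-/-. The part of other cell types in the members' differences was not tested.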

How the data were processed

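RNA of BMDM was measured on 22 Agilent 1-colour arrays of 62976 spots. The authors extracted spot intensity with Feature Extraction 11.0.1.1, and the deposited processed signal is a linear intensity after background correction. The log2 values that the authors deposited as a table were quantile normalised across samples and served as an alternative. Here, log2 processed signals were quantile normalised over all arrays without control spots. Of 55681 probes, those with a RefSeq or GenBank accession and a signal well above background on 3 or more arrays entered the tests (28103 probes, 22384 genes). The probe with the highest mean stood for a gene. Names came from RefSeq accessions (27509 of 29150 probes). The array medians of the processed signal ran from 32.7 to 107.8, 61.7% to 83.0% of probes were well above background, and no spot was saturated. The small number of arrays limits the precision.

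A model with 6 group means was fitted with limma 3.58.1 in R 4.3.3 on all 22 arrays, with Benjamini-Hochberg adjustment over all genes and a threshold of 0.05. A second fit over all kept probes served the second probes of Tyro3 and Msr1. The code was tested on simulated data. Alternatives were the scaling, the background correction (normexp, offset 50), the deposited table, the filters, the choice of probe, the arrays and groups in the fit, array weights, the methods' t-test with the same adjustment, replicate blocks and each array left out in turn. The members and lists were chosen with earlier results of these data known. All members were described, and from each related list at most 3 genes were named, those called for LPS in wt with the largest absolute log2 difference there.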

Additional observations from a re-analysis of the deposited data

Results flagged for a closer look

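In 48 groups of 4 arrays, the highest or lowest log2 signal of a member probe was set against the others, and 4 stood apart by more than the critical value of Dixon's ratio. Chance alone exceeds that value in about 1 of 20 groups. Mertk was 8.0 on MK2/3-/- LPS replicate 3, below the other 3 arrays of that group. On MK2/3-/- LPS replicate 4, Tyro3 was 8.77 on probe 1, above its group, and 6.29 on probe 2, below its group. Cd163 was 3.23 on MK2-/- LPS replicate 3, the only array of its group on which it was well above background.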

How the results depend on the processing

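Of 17 member differences called among 108, 11 were called in all of 12 other settings and 22 fits without 1 array, and none turned sign. Of the 91 others, 12 were called at least once and 35 changed sign at least once. With the methods' t-test 2 members were called for LPS in wt in place of 5, as Mertk (adjusted p = 0.0551), Axl (0.130) and Stab1 (0.0667) were lost. For MK2-/- minus wt under LPS, 1 member was called in place of 0 with normexp, the deposited table, probes above background on all arrays of a group, the probe with the highest wt induction, array weights, the replicate block by label number and without both arrays of low Y-linked signal. That member was Axl, higher in MK2-/-, except with the probe of highest wt induction. There it was Tyro3, lower in MK2-/- (-1.23). For MK2/3-/- minus wt under LPS, 0 were called in place of 1 with a fit of only the 2 groups and with the t-test. For MK2/3-/- minus MK2-/- under LPS, 1 was called in place of 0 with the probe of highest wt induction (Tyro3, 1.46) and with array weights (Mertk, 1.81). For MK2-/- minus wt in medium, 1 was called in place of 0 with that probe (Tyro3, -1.10). Without 1 array the members called ranged from 2 to 6 in wt, 5 to 7 in MK2-/- and 4 to 6 in MK2/3-/- for LPS, from 0 to 1 in the 3 comparisons under LPS and for MK2-/- minus wt in medium, and were 0 in the others. The cause of these changes was not tested.

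Array letters and label numbers were each shared by 10 pairs of LPS and medium arrays, of which 7 had deviations correlated above 0.1. Of the 30 pairs with different letters, 6 did. The animals' ages matched in all 10 same-letter pairs. By label number they differed for replicate 3 of wt (12 weeks under LPS, 13 in medium) and of MK2/3-/- (14 and 12). The labels do not say what a letter marks, and the main values are given without the block. With a replicate block by letter or by number (consensus correlation 0.143 and 0.117), 6 members were called for LPS in each genotype, as Gas6 was also called in wt (adjusted p = 0.0322 by letter and 0.0345 by number) and Marco in MK2/3-/- (0.0350 and 0.0342). Over all genes, calls for MK2/3-/- minus wt under LPS were 5301, against 1465 with only the groups compared, 68 with the t-test and 8153 with scaling to the 75th percentile. In medium they were 437, against 4247 with that scaling, 2017 with array weights, 648 with only the groups compared, 166 with the t-test and 285 in the deposited table. For MK2-/- minus wt they were 2598 under LPS and 1918 in medium, against 599 and 750 with the t-test, 6392 and 2963 with array weights and 4717 and 4854 with scaling to the 75th percentile. Signal over background limits Olr1 in medium, Tyro3 probe 2 and Cd163, whose levels there are bounds or close to them.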
